A study of Mus musculus with 10 samples.

Results

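Immediate early genes were described by 12 probe sets, the only ones of 45037 non-control probe sets whose gene symbol field held Fos, Fosb, Jun, Junb, Egr1, Egr3, Arc, Nr4a1, Ier2 or Klf2. Jun and Egr3 had 2 probe sets each, the other 8 genes had 1, and 0 of the 12 carried a second symbol. The arrays came from 5 Nkx2.2-/- mice (replicates 11, 12, 22, 29 and 43) and 5 wild-type littermates (replicates 14, 15, 16, 18 and 21), all C57BL/6 and aged 1.5 to 2 days. Nkx2.2 is a transcription factor of ventral neural progenitors and oligodendrocyte precursors. The labels write the mutant genotype as Nkx2.2-/- and say nothing further of the allele. RNA was taken from pons, medulla and rostral spinal cord, cut from 20 µm sagittal sections of brains frozen after an overdose of pentobarbital and perfusion. Handling, litter and cage of the single mice were not recorded in the labels, so handling of a mouse cannot be told apart from its other differences. What can be set against genotype is the spread between mice that share one. In this bulk tissue fewer cells of a type and less RNA per cell cannot be told apart.

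Immediate early genes are switched on within minutes of a stimulus and need no new protein synthesis for it. In neurons they follow calcium entry and synaptic activity, through kinases that act on the DNA-bound factors Srf, its Elk partners and Creb, and in glia and vessels they follow growth factors, injury and stress. The products fall into several kinds. Fos and Fosb pair with Jun or Junb to form the AP-1 transcription factor, Egr1 and Egr3 are zinc finger factors, Nr4a1 is an orphan nuclear receptor, Ier2 is a small nuclear protein, Klf2 is a zinc finger factor best known from endothelium under flow, and Arc is a synaptic protein that controls the uptake of glutamate receptors.

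Promoter sequence is shown for Fos and Nr4a1, members of the first group described below, and for Jun, which belonged to the second. The stretches are the 150 bases before the annotated start in RefSeq (GRCm38.p6), 5′ to 3′ on the strand of the gene, and the promoter table held 6 of the 10 genes. They lie at chr12:85473740-85473889 on the plus strand for Fos, at chr15:101266696-101266845 on the plus strand for Nr4a1 and at chr4:95052223-95052372 on the minus strand for Jun. Capitals mark the motifs searched on both strands, which were TGACG (the core of sites bound by Creb and its relatives), TATAAA, GCGNGGGCG (the form bound by Egr factors) and TGANNTCA (a form that AP-1 and Creb relatives bind, which can overlap TGACG).
Fos: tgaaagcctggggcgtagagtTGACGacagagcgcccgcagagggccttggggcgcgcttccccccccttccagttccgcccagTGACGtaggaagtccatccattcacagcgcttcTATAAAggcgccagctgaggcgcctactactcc
Nr4a1: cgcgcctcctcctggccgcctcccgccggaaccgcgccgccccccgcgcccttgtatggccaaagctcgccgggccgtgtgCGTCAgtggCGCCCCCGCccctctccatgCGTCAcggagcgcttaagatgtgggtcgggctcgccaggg
Jun: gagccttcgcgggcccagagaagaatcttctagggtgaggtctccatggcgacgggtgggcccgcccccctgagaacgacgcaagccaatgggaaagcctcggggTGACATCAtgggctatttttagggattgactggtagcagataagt
TGACG occurred 2 times in the Fos stretch, from -129 and from -66 counted back from the start, and 2 times in that of Nr4a1, on the other strand. It was present in 4 of the 6 members' stretches and in 13.3% of all 32851 stretches of that length in the table. The 4 were Fos, Fosb, Nr4a1 and Junb, a gene of the second group. Klf2, of the first group, had no match to any of the motifs. Egr1, Egr3, Arc and Ier2 were not in the promoter table, and a relation of TGACG to the groups was not tested. TATAAA was found in 1 of the 6 (Fos, against 7.57% of all), GCGNGGGCG in 2 (Nr4a1 and Fosb, against 3.81% of all) and TGANNTCA in 1 (Jun, against 8.37% of all). A match describes letters and is not a site.

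The targeted gene separated the groups, with Nkx2-2 between 4.24 and 4.73 in Nkx2.2-/- mice and between 6.42 and 6.88 in wild-type mice (log2 RMA values, 1 probe set). The tissue label held: 11 of 12 measured Hox genes and 12 of 12 pan-neuronal genes had a mean above the median of all probe sets, against 2 of 8 forebrain genes. The level of the Hox genes varied between mice. Their mean lay between 5.99 and 7.11 in Nkx2.2-/- mice and between 5.89 and 6.75 in wild-type mice, and the cause was not tested. The 3 prime control probe set of Gapdh exceeded the 5 prime one by 3.78 (log2) on Nkx2.2-/- replicate 43 and by 2.13 on wild-type replicate 14, against -0.32 to 0.13 on the other 8 arrays. This difference usually grows as RNA breaks down, and these are called the Gapdh-imbalanced arrays.

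The genotypes could not be separated by any immediate early gene. With limma over all 45037 probe sets and Benjamini-Hochberg adjustment, 0 of the 12 probe sets passed at 0.05, where 0.0511% of all probe sets did, each of them lower in Nkx2.2-/- mice. None reached an unadjusted p of 0.05 either, against 3.43% of all, and the lowest unadjusted p was 0.130, for Klf2 (limma adjusted p = 0.9997 for every member). In 0 of the 12 did the groups fail to overlap, against 0.757% of all. By the brightest probe set, 7 of 10 genes were lower in Nkx2.2-/- mice in sign and 3 higher, where 53% of all genes were lower. The median log2 difference over the 10 genes was -0.07, beside 0.0010 over all probe sets. Without wild-type replicate 15 the median of the 10 genes was -0.02.

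**Figure D1:**
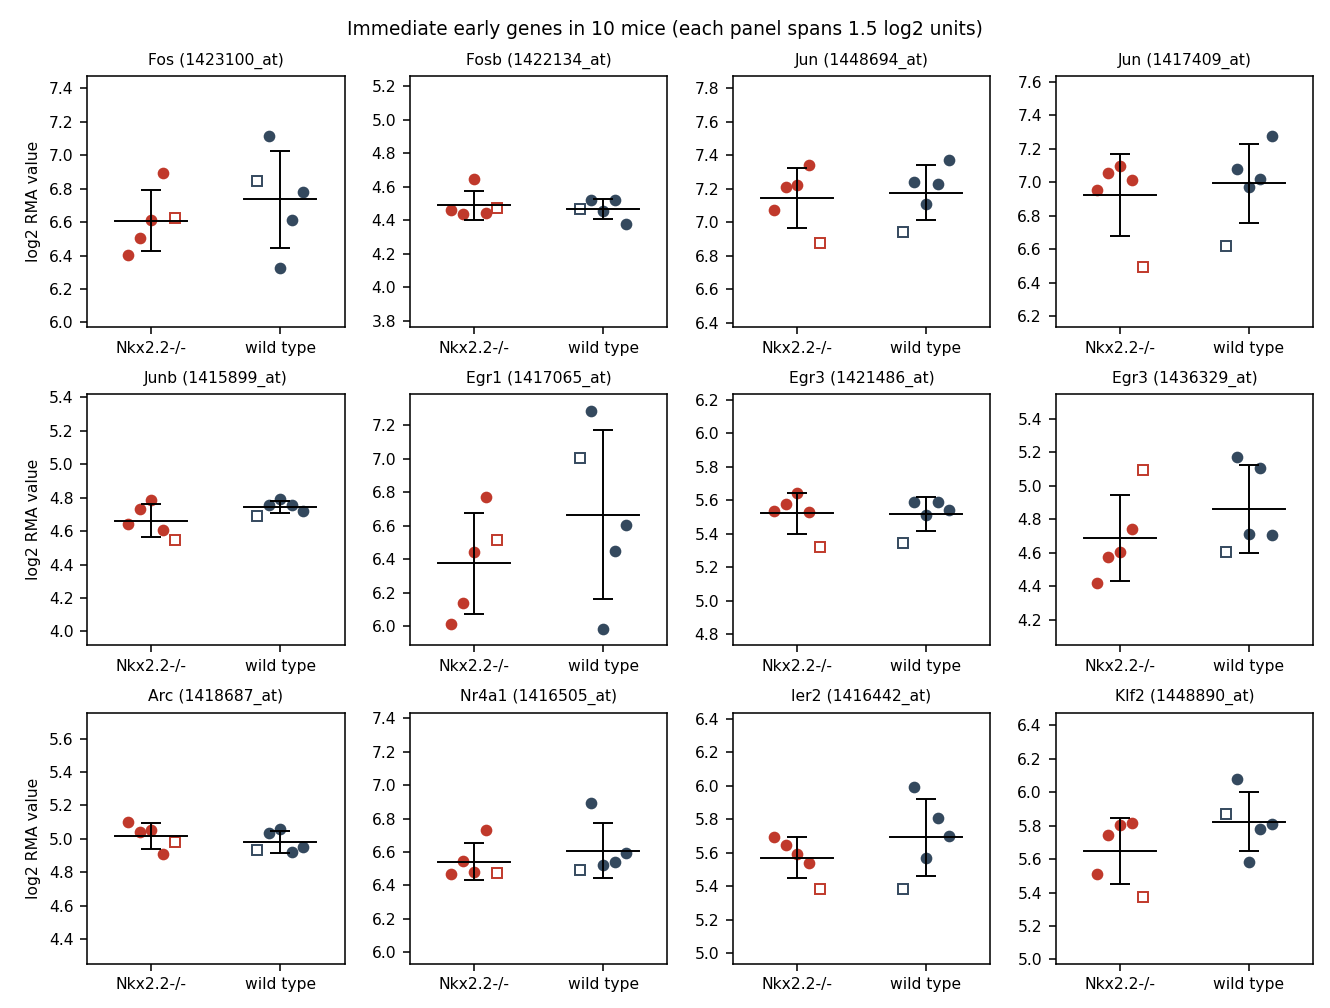
Log2 RMA value of each of the 12 probe sets (panels, each spanning 1.5 log2 units) in 5 Nkx2.2-/- mice (left, red) and 5 wild-type mice (right, blue), with the mean as a line and the SD as a bar. Open squares mark the 2 Gapdh-imbalanced arrays, Nkx2.2-/- replicate 43 and wild-type replicate 14, and in every panel the groups overlap.

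Mice of the same genotype differed in these genes. The residual SD about the genotype means had a median of 0.156 over the 10 genes, against 0.0911 over all probe sets, and for 5 genes it exceeded that of 80% of all probe sets. Such a spread was not particular to the members: the same held for 17 of 40 other immediate early genes, 9 of 12 neuronal genes, 11 of 12 Hox genes and 11 of 11 meningeal genes. The median SDs of these lists were 0.147, 0.210, 0.420 and 0.457. In 11 of the 12 member probe sets the genotype difference was smaller than the residual SD. The exception, Junb, had a difference of -0.08 and an SD of 0.0727. The same relation held for 87.8% of all probe sets, so it does not set the members apart. Fosb, Junb and Arc were dim, with means above 20.8%, 33.0% and 46.5% of all probe sets, and their SDs exceeded those of 33.5%, 32.1% and 28.4%. RMA gives no detection call and compresses differences of dim probe sets, so a small spread of these 3 says little about their transcripts.

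**Figure D2:**
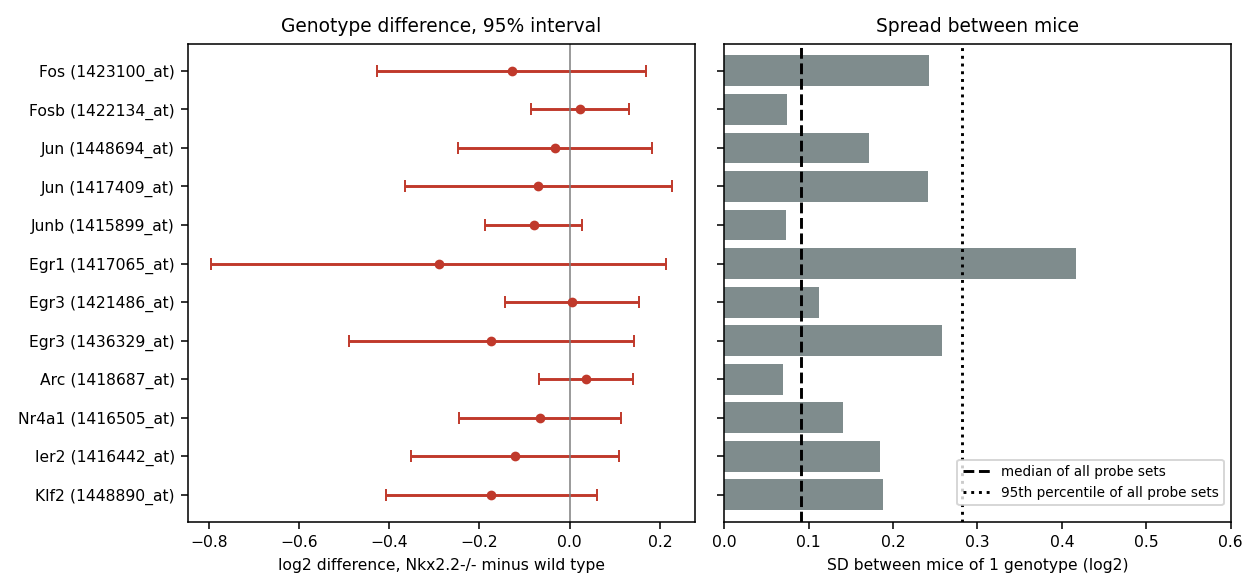
Left, log2 difference between Nkx2.2-/- and wild type for each probe set with its 95% interval from limma. Right, SD between mice of 1 genotype, with the median (0.0911) and the 95th percentile (0.281) of all probe sets as lines. Every interval spans 0, and Egr1 alone lies beyond the 95th percentile, at 0.416.

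Egr1 (probe set 1417065_at) varied most. Its log2 values were 6.01, 6.14, 6.44, 6.77 and 6.51 in Nkx2.2-/- replicates 11, 12, 22, 29 and 43, and 7.01, 7.29, 5.98, 6.45 and 6.60 in wild-type replicates 14, 15, 16, 18 and 21. Both the highest and the lowest of the 10 mice were wild type, replicates 15 and 16, and they lay 2.47-fold apart. All 5 Nkx2.2-/- mice fell between them. The means were 6.38 ± 0.303 in Nkx2.2-/- and 6.67 ± 0.505 in wild type (SD, n = 5 each), a log2 difference of -0.29 with a 95% interval of -0.79 to 0.21. The difference between the genotype means held 13.2% of the variance among the 10 mice. Groups this small give some share even without an effect of genotype. Its SD between mice of 1 genotype exceeded that of 99% of probe sets. The difference was -0.14 without wild-type replicate 15 and -0.46 without wild-type replicate 16. Leaving out a single Nkx2.2-/- mouse moved it less, to -0.20 for replicate 11 and to -0.39 for replicate 29. Its size thus depended on single mice of either genotype (limma adjusted p of at least 0.977 whichever array was left out).

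Fos (1423100_at), the AP-1 subunit most used as a marker of recent neuronal activity, followed a similar order of mice. It lay at 6.41, 6.51, 6.61, 6.89 and 6.63 in Nkx2.2-/- replicates 11, 12, 22, 29 and 43, and at 6.84, 7.12, 6.33, 6.61 and 6.78 in wild-type replicates 14, 15, 16, 18 and 21. Wild-type replicates 15 and 16 were again the extremes of all 10 mice, and Nkx2.2-/- replicates 29 and 11 those of their own group. The means were 6.61 ± 0.181 in Nkx2.2-/- and 6.74 ± 0.292 in wild type (SD, n = 5 each), with a log2 difference of -0.13 (95% interval -0.43 to 0.17). It was -0.03 without wild-type replicate 15 and -0.23 without wild-type replicate 16.

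As deviations from the genotype means, Fos and Egr1 varied together over the 10 mice. Pearson's r was 0.97 and Spearman's rho 0.95, and the exact two-sided permutation test within genotypes gave p = 6.94e-05 for r, the smallest that it can give. Over all 66 pairs of member probe sets the adjusted p was 0.00458 for r and 0.0183 for rho. The call was lost without Nkx2.2-/- replicate 11 (r = 0.97, exact permutation adjusted p = 0.0573) and without Nkx2.2-/- replicate 12 (r = 0.98, exact permutation adjusted p = 0.0802). Without wild-type replicates 15 and 16, the mice farthest from the median of Fos, r was 0.93. Without the 2 Gapdh-imbalanced arrays r was 0.99 (n = 8, exact permutation p = 0.00174, the smallest 8 mice allow, and adjusted p = 0.115). The other pair of the 66 that passed was the 2 probe sets of Jun, which read 1 gene (r = 0.92, rho = 0.89, exact permutation adjusted p = 0.0390 for r and 0.0527 for rho), and there r was 0.74 without the Gapdh-imbalanced arrays.

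Nr4a1 and Klf2 leaned the same way without passing. Nr4a1 (1416505_at) lay at 6.47, 6.55, 6.48, 6.73 and 6.48 in Nkx2.2-/- replicates 11, 12, 22, 29 and 43, and at 6.49, 6.90, 6.52, 6.54 and 6.59 in wild-type replicates 14, 15, 16, 18 and 21. Replicate 29 was the highest Nkx2.2-/- mouse and replicate 15 the highest wild-type mouse, as for Fos and Egr1, while the other mice were close to each other. Klf2 (1448890_at) lay at 5.51, 5.74, 5.80, 5.81 and 5.37 in those Nkx2.2-/- mice and at 5.87, 6.08, 5.58, 5.78 and 5.81 in the wild-type mice. With Fos, r was 0.75 for Nr4a1 (rho = 0.58) and 0.73 for Klf2 (rho = 0.67), with exact permutation adjusted p of 0.264 and 0.227 for r over the 66 pairs. Without wild-type replicates 15 and 16, r was 0.62 and 0.44. With Jun (1448694_at), r was 0.53 for Nr4a1 (rho = 0.71) and 0.59 for Klf2 (rho = 0.67). Neither pair with Jun passed (exact permutation adjusted p of 0.291 and 0.390 for rho). By rho both genes were thus at least as close to Jun as to Fos, and the division of the members into groups was not tested. The log2 difference between genotypes was -0.07 (95% interval -0.25 to 0.11) for Nr4a1 and -0.17 (-0.41 to 0.06) for Klf2. That of Nr4a1 was 0.0053 without wild-type replicate 15 and -0.11 without Nkx2.2-/- replicate 29. That of Klf2 was -0.11 without Nkx2.2-/- replicate 43, -0.11 without wild-type replicate 15 and -0.09 without the 2 Gapdh-imbalanced arrays. Egr1, Fos and Klf2 were 3 of the 12 probe sets that had their highest wild-type value in replicate 15 and their lowest in replicate 16, an order found in 4.15% of all probe sets. This order is that of Egr1 and Fos themselves, so the share of all probe sets gives no test of the members.

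**Figure D3:**
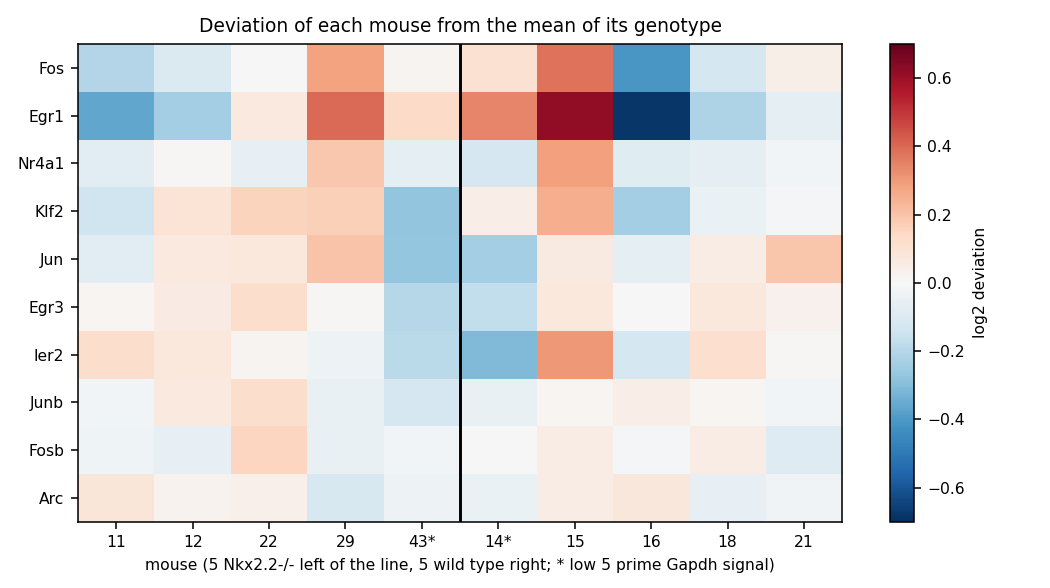
Log2 deviation of each mouse (columns, 5 Nkx2.2-/- left of the line and 5 wild type right) from the mean of its genotype, for the brightest probe set of each gene (rows). Wild-type replicate 15 is above its genotype mean in all 10 genes. The arrays marked with an asterisk are the lowest of their genotype in Jun, Egr3, Ier2 and Junb.

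By the brightest probe set, Jun, Egr3, Ier2 and Junb were the lowest of their genotype on the 2 Gapdh-imbalanced arrays. Fosb, Arc and Nr4a1 were also below their genotype means on both. Klf2 was below it on Nkx2.2-/- replicate 43 only, and Fos and Egr1 were above theirs on both. Jun, the main AP-1 partner of Fos, lay at 7.07, 7.21, 7.22, 7.34 and 6.87 in Nkx2.2-/- replicates 11, 12, 22, 29 and 43, and at 6.94, 7.24, 7.11, 7.23 and 7.37 in wild-type replicates 14, 15, 16, 18 and 21 (1448694_at). Nkx2.2-/- replicate 43 and wild-type replicate 14 had the lowest value of their group. The second probe set of Jun (1417409_at) was at 6.50 and 6.62 on these 2 arrays, against 6.96 to 7.10 in the other 4 Nkx2.2-/- mice and 6.97 to 7.27 in the other 4 wild-type mice. Ier2 (1416442_at) was at 5.38 on both arrays, against 5.54 to 5.69 in the other Nkx2.2-/- mice and 5.57 to 5.99 in the other wild-type mice. In 5 of the 12 probe sets both arrays were lowest in their genotype, an order found in 11.5% of all probe sets. The part of RNA breakdown in these values was not tested.

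For Jun the log2 difference between genotypes was -0.03 (95% interval -0.25 to 0.18), and 0.01 with the Gapdh difference as a covariate. For Ier2 it was -0.12 (-0.35 to 0.11) and for Junb (1415899_at), an AP-1 subunit that often opposes Jun, -0.08 (-0.19 to 0.03). That of Ier2 was -0.07 without Nkx2.2-/- replicate 43, -0.20 without wild-type replicate 14 and -0.05 without wild-type replicate 15, and that of Junb was -0.05 without Nkx2.2-/- replicate 43. Junb averaged 4.66 ± 0.0960 in Nkx2.2-/- and 4.74 ± 0.0370 in wild type (SD, n = 5 each), and the 5 Nkx2.2-/- values spanned the whole wild-type range but for its upper end. Without the 2 Gapdh-imbalanced arrays the median difference over the 10 genes was -0.07, as with them. Each genotype held 1 of the 2.

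**Figure D4:**
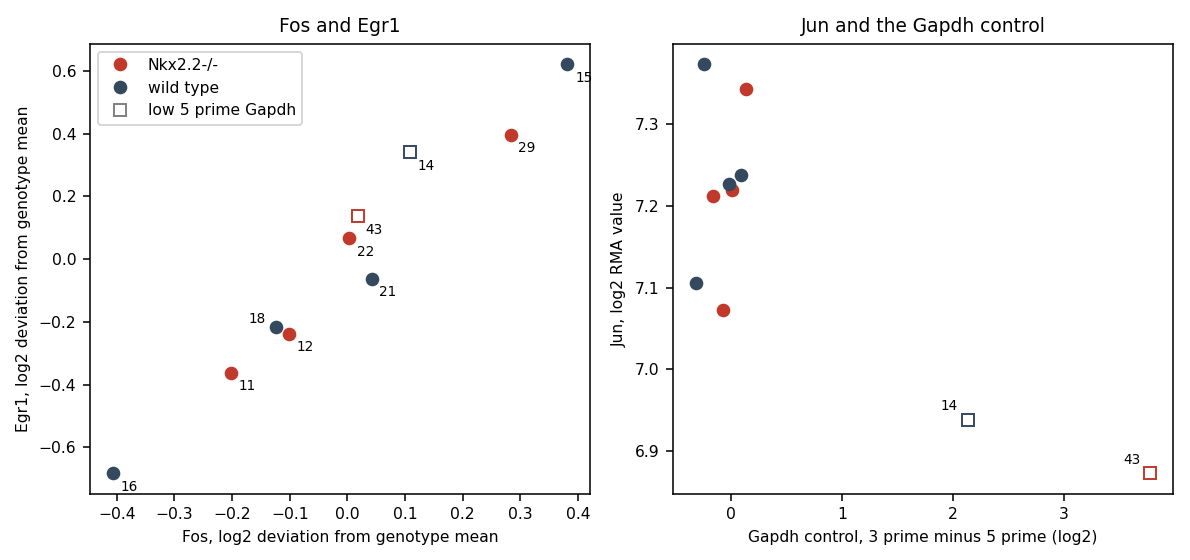
Left, Egr1 against Fos as log2 deviations from the genotype mean, 1 point per mouse with its replicate number (r = 0.97). Right, log2 value of Jun against the log2 difference between the 3 prime and 5 prime Gapdh control probe sets, where Nkx2.2-/- replicate 43 and wild-type replicate 14 (open squares) lie apart and have the lowest Jun values.

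The 2 probe sets of Egr3, a zinc finger factor that sustains responses begun by Egr1, did not run alike. The brighter (1421486_at) lay at 5.53, 5.58, 5.65, 5.53 and 5.32 in Nkx2.2-/- replicates 11, 12, 22, 29 and 43, and at 5.34, 5.59, 5.51, 5.59 and 5.55 in wild-type replicates 14, 15, 16, 18 and 21. The dimmer (1436329_at) lay at 4.42, 4.58, 4.61, 4.74 and 5.10 in those Nkx2.2-/- mice and at 4.61, 5.17, 4.71, 5.11 and 4.70 in those wild-type mice. On replicate 43 the first was the lowest and the second the highest of the Nkx2.2-/- mice. Their r was -0.09 (rho = 0.18, exact permutation adjusted p = 0.974), and 0.49 without the Gapdh-imbalanced arrays. The log2 differences between genotypes were 0.0049 (95% interval -0.14 to 0.15) and -0.17 (-0.49 to 0.14). Fosb (1422134_at) lay between 4.44 and 4.64 in Nkx2.2-/- and between 4.38 and 4.52 in wild type, with a log2 difference of 0.02 (-0.09 to 0.13). Arc (1418687_at) lay between 4.91 and 5.10 in Nkx2.2-/- and between 4.92 and 5.06 in wild type, with a difference of 0.04 (-0.07 to 0.14).

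Averaged over the 10 genes, wild-type replicate 15 deviated by 0.21 from its genotype mean on the log2 scale, the most of all mice, and was the highest wild-type mouse in 7 genes. Wild-type replicate 16 was the lowest at -0.15. Among Nkx2.2-/- mice the mean deviation ran from -0.10 in replicate 43 to 0.10 in replicate 29, the highest of its group in 5 genes. Wild-type replicate 15 was also highest in genes of meninges and fibroblasts, whose mean over 11 of 11 genes lay between 6.56 and 7.02 in Nkx2.2-/- mice and at 7.08, 7.76, 6.89, 7.16 and 6.32 in wild-type replicates 14, 15, 16, 18 and 21. Endothelial genes (14 of 14) had means of 5.91 to 6.09 in Nkx2.2-/- mice and 5.99 to 6.20 in wild-type mice, again highest in replicate 15. With the meningeal mean as a covariate the difference of Egr1 was -0.14 in place of -0.29, and that of Fos was -0.05 in place of -0.13. The endothelial mean gave -0.23 and -0.08, and the Gapdh difference -0.33 and -0.14. A sex covariate from Xist and Y-linked genes gave -0.24 and -0.10. Without wild-type replicate 15 and with no covariate the differences were -0.14 and -0.03. The part of meningeal tissue in the level of the members was not tested.

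The lists of heat shock, glucocorticoid and low oxygen responses, and of other cells, did not give a pair with a member that passed. Of 120 pairs of 10 members with 12 lists, 0 passed after adjustment (exact permutation tests) and 15 had an unadjusted p under 0.05, none of them for Fos or Egr1. For Fos and Egr1 r was 0.39 and 0.47 with heat shock genes (rho 0.44 and 0.47, adjusted p 0.694 and 0.555 by exact permutation), and 0.44 and 0.47 with meningeal genes (rho 0.38 and 0.42, adjusted p 0.708 and 0.694 by exact permutation). Without wild-type replicates 15 and 16 the meningeal values were 0.01 and 0.11. Without the same mice several other lists gave higher values than with them: 0.81 and 0.90 for heat shock genes, 0.85 and 0.81 for Hox genes, 0.74 and 0.69 for neuronal genes and 0.62 and 0.65 for low oxygen genes, for Fos and Egr1 in that order. These were not tested. The list of red cell genes rested on 5 of 9 genes, 0 of them brighter than the median probe set.

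Among 40 of 43 other immediate early genes measured, 0 rose and 0 fell by the fit over all probe sets (limma), 0 had an unadjusted p under 0.05, and the median log2 difference was -0.03. The lowest unadjusted p values were those of Fosl2, a Fos relative, with a log2 difference of 0.09, Gadd45g with -0.13, Ier3 with -0.16, Klf4 with -0.18 and Egr4 with 0.07. Npas4, a factor induced by calcium in neurons, had a difference of -0.09, the dual specificity phosphatase Dusp1 -0.14, the RNA-binding protein Zfp36 -0.04, the scaffold Homer1 0.02 and the neurotrophin Bdnf -0.01. Egr2, Nr4a2, Nr4a3, Atf3, Btg2 and Jund lay between -0.06 and 0.02. Over these 40 genes Klf4 and Dusp1 were most like Fos across mice. Dusp1, which switches off the kinases upstream of Fos, lay at 6.50, 6.47, 6.67, 6.93 and 6.97 in Nkx2.2-/- replicates 11, 12, 22, 29 and 43, and at 7.09, 7.01, 6.28, 6.87 and 6.99 in wild-type replicates 14, 15, 16, 18 and 21. Replicate 16 was again the lowest mouse. With Fos, r was 0.86 for Klf4 (rho = 0.82) and 0.82 for Dusp1 (rho = 0.77), and none of the 400 pairs of members with these genes passed (exact permutation adjusted p of 0.173 and 0.156 for these).

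The genes that act on immediate early promoters did not pass either. Of 17 of 22 measured upstream regulators and corepressors, 0 rose and 0 fell (limma), 0 had an unadjusted p under 0.05, and the median log2 difference was -0.06. Srf had a difference of -0.06, Creb1 of -0.16, Mef2c of -0.30, Elk3 of -0.17, and the Egr corepressors Nab1 and Nab2 of -0.08 and -0.13. In the heat shock, glucocorticoid and low oxygen lists 0 of 10, 0 of 12 and 0 of 13 measured genes passed. Unadjusted p values under 0.05 were those of Nfkbia in the glucocorticoid list, with a log2 difference of 0.30, and Egln3 in the low oxygen list, with -0.11 (limma adjusted p = 0.9997 for both).

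Among 9092 other genes brighter than the median gene, those whose deviations were most like the mean of the 10 members were Ptpn1, Ece1, Rrp12, Trpv2, Mlycd, Cmc2, Efnb1 and Lrp10, with Pearson's r from 0.91 to 0.94 over the 10 mice. Each of the 8 was above its genotype mean in wild-type replicate 15 and below it in wild-type replicate 16 and Nkx2.2-/- replicate 43. Those mice were the highest and the lowest in the members' mean, so these signs follow from how the 8 were chosen. None of the 8 is an immediate early gene of the lists used. This likeness is a description of 10 arrays searched over many genes.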

How the data were processed

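RNA of each mouse was hybridised to 1 array as biotinylated cRNA. The authors deposited log2 signals summarised with RMA, which the submitters' processing notes name without a version. This method fits all arrays to a single distribution of signals, and a change common to most genes is therefore lost. Of 45101 probe sets, 64 controls were left out, and gene symbols came from the platform annotation. Groups were tested by limma 3.58.1 (R 4.3.3, lmFit, then eBayes) over 45037 probe sets, without covariates or a filter on dim probe sets, with Benjamini-Hochberg adjustment at 0.05. For other lists the brightest probe set with 1 symbol stood for a gene (18193 genes). Correlations between mice used deviations from genotype means and exact permutation within genotypes (14400 permutations). Python 3.11.15 served for these. Both tests were checked on simulated data. The number of arrays limits the precision, and p-values measure the spread between these mice, of which littermates count as separate.

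The members and lists were chosen with earlier results of these data known. Genes named were the members, fixed examples, up to 5 genes of lowest p in a list and the 8 most like the members' mean. Alternatives were 1 probe set or the mean per gene, quantile normalization again, a common median and leaving out dim probe sets. Further ones were a trend and robust prior, array weights and leaving out arrays. Covariates were sex, the Gapdh difference, meninges and endothelium, 1 at a time. The labels give no sex, so that covariate was the Xist value minus the mean of 3 Y-linked genes on each array.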

Additional observations from a re-analysis of the deposited data

Results flagged for a closer look

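In 26 groups of 5 mice, 3 values lay far from the other 4 of their genotype, where chance gives about 1 in 20 groups. Fosb was at 4.64 in Nkx2.2-/- replicate 22, against 4.44 to 4.47 in the other Nkx2.2-/- mice. The second probe set of Jun was at 6.50 in Nkx2.2-/- replicate 43, a Gapdh-imbalanced array, against 6.96 to 7.10. Nr4a1 was at 6.90 in wild-type replicate 15, against 6.49 to 6.59 in the other wild-type mice, and without that mouse its genotype difference was 0.0053 in place of -0.07 on the log2 scale.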

How the results depend on the processing

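Under all 22 alternatives 0 member probe sets and 0 genes of the other lists passed. Of 217 recomputed member differences, 205 kept their sign, and the lowest adjusted p was 0.735 (limma). The 12 that changed sign were of 4 genes with small differences. Egr3 changed to -0.084 as the mean of its probe sets and to -0.011 with the sex covariate, read from Xist and Y-linked genes. Fosb changed to -0.011 with array weights, and Jun to 0.0073 with the Gapdh covariate and to 0.0049 with the endothelial one. Leaving out 1 array gave -0.038 to 0.055 for Egr3, -0.016 to 0.036 for Fosb, -0.092 to 0.035 for Jun and -0.11 to 0.0053 for Nr4a1; the cause was not tested. The median over the members kept its sign, between -0.12 and -0.02, and the median SD between mice ranged from 0.123 to 0.166.

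The highest mean deviation of a mouse was 0.0994, in Nkx2.2-/- replicate 29, without wild-type replicate 15, and up to 0.211 without another array, since that mouse held the maximum. For Fos with Egr1, a result whose alternatives were chosen after seeing the data, r lay between 0.956 and 0.985 when 1 array was left out, with adjusted p from 0.0115 to 0.0802 (exact permutation). It did not pass without Nkx2.2-/- replicate 11 (0.0573) or 12 (0.0802), nor without both Gapdh-imbalanced arrays, at r of 0.991 and adjusted p of 0.115 (exact permutation, n = 8), where fewer mice allow fewer permutations. No paired analysis was possible because the labels do not give the litter of each mouse.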

Other observations

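Of the 400 pairs of members with other immediate early genes, none passed, and those of lowest p lay outside the Fos and Egr1 pattern. Jun varied with Npas4 (r = 0.96, rho = 0.94) and with Vgf, a secreted neuronal peptide precursor (r = 0.92, rho = 0.88), both with an exact permutation adjusted p of 0.0625. Npas4 was dim, with a mean above 40.3% of all probe sets. Jun, Npas4 and Vgf were each the lowest of their genotype on both Gapdh-imbalanced arrays, and without these arrays r was 0.86 and 0.76. Ier2 ran against Homer1 (r = -0.82, rho = -0.88) and Junb against Mcl1, a survival protein (r = -0.84, rho = -0.85), each with an exact permutation adjusted p of 0.0625. On both Gapdh-imbalanced arrays Ier2 and Junb were the lowest of their genotype and Homer1 and Mcl1 the highest, and without these arrays r was -0.65 and -0.71. Arc, a dim probe set, ran against the mean of the low oxygen genes (r = -0.89, rho = -0.87, exact permutation adjusted p = 0.111), and r was -0.93 without the Gapdh-imbalanced arrays. The same adjusted p was found for Arc with the heat shock genes (r = -0.85, rho = -0.84) and for Jun with genes of microglia and macrophages (r = 0.88, rho = 0.88). Without the Gapdh-imbalanced arrays r was -0.91 and 0.77.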
